A study of Mus musculus with 15 samples.

Results

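The step from 3 to 6 months of age was followed in the cortex of 5XFAD mice, with 2 libraries at 3 months and 3 at 6 months taken by genotype and age from the 15 libraries of the series. 5XFAD mice carry mutant human transgenes of familial Alzheimer's disease, which are driven by a neuronal Thy1 promoter and lead to amyloid deposits. The libraries at both ages came from this genotype on the C57BL/6J strain, and no treatment was given in the labels. Non-transgenic controls of the same strain (WT), with 2 libraries at 3 months and 3 at 6 months, are shown as background. Whether each library is a separate animal is not given, and p-values here cover the variation among these samples, which may be technical. Since cortex was sequenced in bulk, fewer cells of a type and less RNA per cell cannot be told apart.

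Microglia, the resident macrophages of the brain, gather around amyloid plaques and there switch from a homeostatic programme to one of phagocytosis, lysosomal digestion and lipid handling that depends on the receptor Trem2 and its adaptor Tyrobp. Astrocytes near plaques become reactive and build up the intermediate filament protein Gfap. Antigen presentation, complement and interferon genes are further parts of the response of glia in this model.

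The 5 libraries held 149.7 M to 226.7 M counts, and differences between replicates of a group exceeded the counting error. All 14 excitatory neuron markers of the cortex were counted in each of them, at a summed 6283 to 8697 CPM (counts scaled to the size of the TMM-adjusted library), against 298 to 636 CPM for 16 striatal markers. Choroid plexus transcripts set 2 libraries apart, with the 20 markers at a summed 674 CPM in 6-month replicate 1 and 4310 CPM in 6-month replicate 2, against 12.9 to 39.6 CPM in the other 3. By Xist and Y-linked transcripts, replicate 1 of each age was male and the others were female. Among the WT libraries of these ages, 3-month replicate 1 held 1792 CPM of striatal markers, against 343 to 368 CPM in the other 4. Thy1 and App, mouse genes related to the transgenes, were not called. Thy1 was at 2051 and 2414 CPM at 3 months and at 2093, 2235 and 2635 CPM at 6 months in 5XFAD, and at 552 to 699 CPM in WT. The log2 fold changes of Thy1 and App between the ages were 0.06 ± 0.12 (SE) and 0.15 ± 0.10, with adjusted p of 0.846 and 0.483 by edgeR. These mouse genes may also take up reads from the human transgenes, in an unknown share.

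The comparison asked which transcripts changed as 5XFAD mice aged from 3 to 6 months. Of 21555 genes tested with edgeR's quasi-likelihood test, 34 passed a Benjamini-Hochberg adjusted p of 0.05. There were 23 genes higher at 6 months (0.107% of those tested) and 11 lower (0.051%), and 21 and 3 of them changed at least 2-fold. Among the increases were the microglial genes Itgax and Clec7a, the chemokine genes Ccl3 and Ccl4, complement C4b, the astrocyte gene Gfap and 3 genes of the major histocompatibility complex class I pathway. The adjusted p was the same, 0.0483, for each of the 34, so the calls stood close to the threshold as a block. At an unadjusted p under 0.05, 2173 genes lay higher (10.1%) and 1611 lower (7.47%). The 3 libraries at 6 months all lay above both 3-month libraries for 3728 genes (17.3%) and all below for 3074 (14.3%), and the groups did not overlap for any of the 34. In WT, edgeR called 0 genes (0%) in the same step, with 1138 at an unadjusted p under 0.05, while DESeq2 called 14 higher and 20 lower. The WT groups did not overlap for 2120 genes higher (9.84%) and 2336 lower (10.8%). The calls rested on few libraries: 0 genes were called in 5XFAD without 3-month replicate 1, 2 lower ones without 3-month replicate 2, and 290 higher and 32 lower ones without 6-month replicate 1. Without 6-month replicate 2 the counts were 15 and 33, without 6-month replicate 3 they were 31 and 19, and without the 12-month libraries of the model none was called.

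Ctse, Dcstamp, Hcar2, Itgax and Clec7a, which phagocytes use, were among the largest increases. Ctse, which encodes the aspartic protease cathepsin E, was at 0.0948 and 0.0187 CPM at 3 months and at 0.624, 0.978 and 2.11 CPM at 6 months. That is a 21.8-fold increase (log2 fold change 4.45 ± 0.73) on 23 counts over the 3-month group and 752 over the 6-month group. Itgax, the integrin CD11c of activated microglia, rose from 2.96 and 2.32 CPM to 12.4, 16.1 and 42.5 CPM, by 8.98-fold (3.17 ± 0.53 on the log2 scale). Even the lowest 6-month library thus stood well above both 3-month ones. Clec7a, the beta-glucan receptor dectin-1, rose from 3.45 and 2.61 CPM to 12.6, 21.6 and 40.8 CPM, by 8.25-fold (3.04 ± 0.50). Hcar2, the receptor for niacin and the ketone body beta-hydroxybutyrate, rose from 0.155 and 0.117 CPM to 0.79, 1.16 and 3.36 CPM, with a log2 fold change of 3.70 ± 0.63. In each of these genes, 6-month replicate 3 was the highest library and replicate 1 the lowest.

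Transporters, surface proteins and adaptors were called higher beside them. Dcstamp, a membrane protein of fusing macrophages and osteoclasts, had a log2 fold change of 4.32 ± 0.76 on 12 and 365 counts per group. Tent5c, a poly(A) polymerase, was at 4.10 and 4.07 CPM at 3 months and at 9.65, 17.9 and 29.5 CPM at 6 months (2.22 ± 0.37). Slc11a1, a metal ion transporter of the phagosome, was at 3.82 and 3.81 CPM and then at 9.56, 11.8 and 20.8 CPM (1.88 ± 0.30). The 3-month pair was nearly equal in both genes, while the 6-month libraries spread over more than a doubling. Slc15a3, a peptide and histidine transporter of the endolysosome, rose by 2.07 ± 0.34 on the log2 scale, Cd48, a surface receptor of leukocytes, by 1.91 ± 0.33, and Samsn1, a signalling adaptor of blood cells, by 1.77 ± 0.30. Slc37a2, a sugar-phosphate transporter abundant in macrophages, rose from 4.21 and 4.75 CPM to 10, 16.2 and 15.3 CPM, by 3.09-fold (1.63 ± 0.22). The smallest called increases were those of Stard4, a sterol carrier, by 0.72 ± 0.12, and of the lysosomal carboxypeptidase gene Prcp, by 0.65 ± 0.11. The non-coding genes Gm15462, with 8 and 184 counts per group, and Gm13293, with 128 and 1018, were called higher too. Of the 23 genes called higher, 12 had a positive log2 fold change in WT and 11 a negative one. Gm15462 had 2.85 ± 0.57 in WT, against 4.06 ± 0.59 in 5XFAD, Stard4 had 0.35 ± 0.12 in WT and Prcp 0.30 ± 0.11. The WT groups did not overlap upwards for these genes either. The same held for Clec7a, with 1.72 ± 0.73 in WT at 0.336 CPM or less, and for H2-D1, with 0.13 ± 0.19. Gm15462 is annotated as antisense, and as it is not given whether counting used strand, its reads cannot be told apart from those of an overlapping gene.

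**Figure D1:**
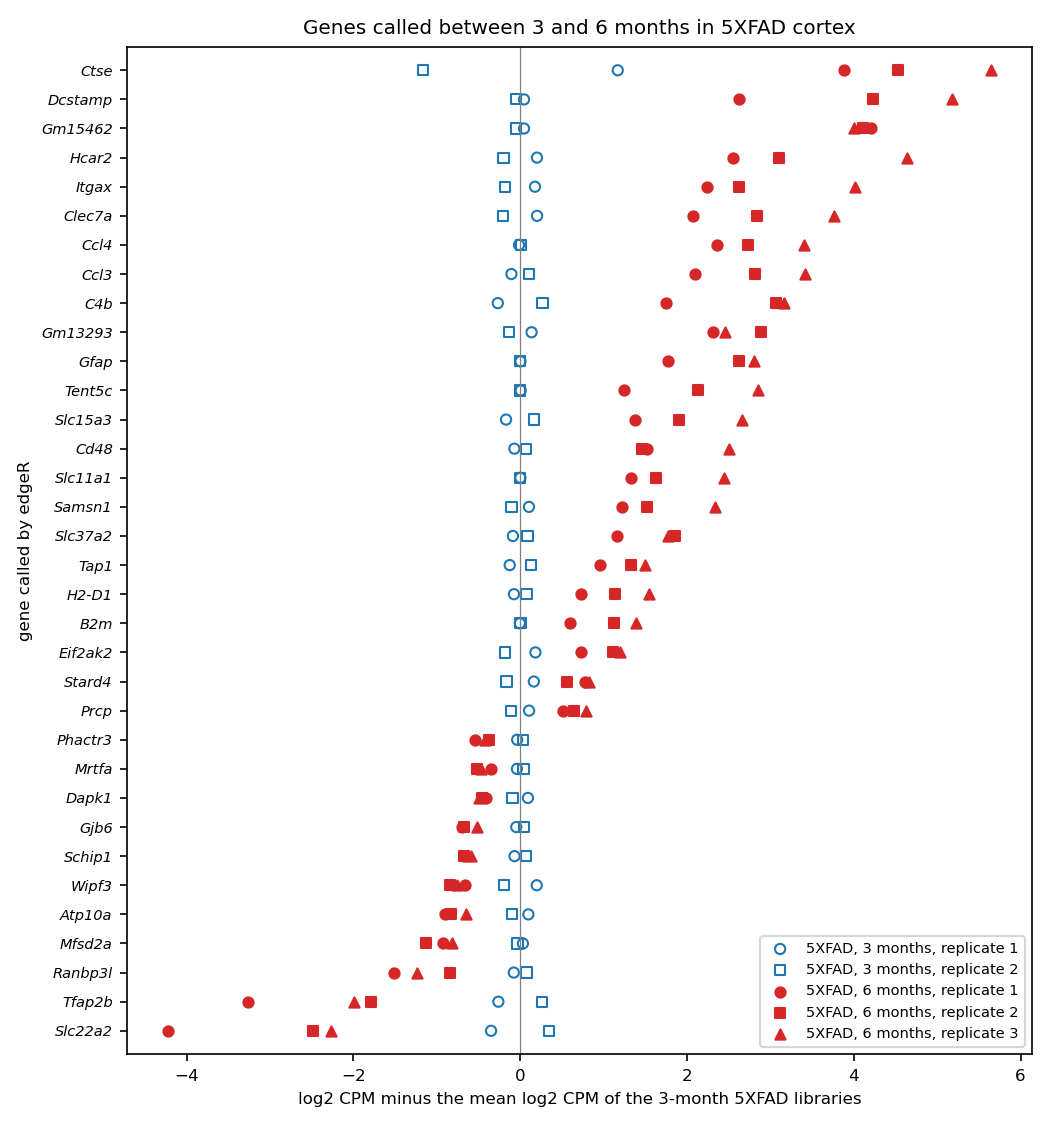
Each row is one of the 34 genes called by edgeR, and the horizontal axis gives log2 CPM minus the mean log2 CPM of the 3-month 5XFAD libraries. Open blue symbols are the 2 libraries at 3 months and filled red symbols the 3 at 6 months, with the marker shape giving the replicate. The red and the blue symbols do not overlap in any row, and replicate 3 is the highest 6-month library in 20 of the 23 increases.

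Across the 23 increases, 6-month replicate 3 was the highest library in 20 and replicate 1 the lowest in 20. Replicate 3 is the 6-month library without raised choroid plexus transcripts. With both libraries rich in Ttr, the choroid plexus transport protein, left out, edgeR called 291 genes higher and 18 lower and 26 of the 34 genes kept the call, with the lone 6-month library taken to vary like the other groups. Replicate 1 is also the male library of its group, and with sex as a term in the model 141 genes were called higher and 92 lower, all 34 among them.

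Disease-associated microglia genes, a list drawn from the plaque-associated state, had positive log2 fold changes in nearly all members. Of 29 tested, 28 had a positive log2 fold change, against 55.0% of all genes. For 25 the groups did not overlap upwards, against 17.3% of all genes. The median was 1.31, against 0.03 over all genes and 0.01 for the same list in WT. Itgax, Clec7a and B2m were called higher (0.107% of all genes), and none was called lower (0.051%). Trem2, the lipid-sensing receptor of the programme, was at 19.0 and 19.2 CPM at 3 months and at 46.6, 63.6 and 122 CPM at 6 months, with an edgeR adjusted p of 0.0615. Its adaptor Tyrobp was at 19.9 and 22.9 CPM and then at 46.7, 66.5 and 121 CPM, also at 0.0615. Both stood above the 3-month level in all 3 libraries, by a fitted 4.05-fold and 3.65-fold, without passing the test over all genes. Cst7, the protease inhibitor cystatin F, was at 6.52 and 5.78 CPM and then at 25.5, 37.1 and 96.8 CPM (3.11 ± 0.61, adjusted p = 0.064). Without both libraries rich in Ttr the median of the list was 2.00, and without 6-month replicate 3 it was 0.87.

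Not all genes of that state were raised in every library. Apoe, the lipid carrier, was at 881 and 1191 CPM at 3 months and at 921, 1214 and 1400 CPM at 6 months, so that the ages overlapped (0.19 ± 0.19, adjusted p = 0.642). Spp1, the secreted protein osteopontin, was at 9.35 and 8.53 CPM and then at 6.03, 13.9 and 39.3 CPM, with 1 library below and 2 above the 3-month pair (1.15 ± 0.66, adjusted p = 0.396). Timp2 and Ank were the other members whose groups overlapped. Apoe is also made by astrocytes. Lyz2, the lysozyme of myeloid cells, was at 12.9 and 13.6 CPM at 3 months and at 30.1, 52.6 and 91.1 CPM at 6 months (adjusted p = 0.0615). Cd68, the phagocyte scavenger receptor macrosialin, was at 12.2 and 13.5 CPM and then at 27.1, 35.8 and 75.2 CPM (adjusted p = 0.0655). In both, the lowest 6-month library stood at about the doubled 3-month level.

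Homeostatic microglia genes, which mark surveying microglia, had mostly positive log2 fold changes as well. Of 18 tested, 16 had a positive log2 fold change and none was called. For 12 the groups did not overlap upwards and for none downwards, against 17.3% and 14.3% of all genes. The median was 0.69, with -0.09 in WT and 1.12 without both libraries rich in Ttr, and 0.40 without 6-month replicate 3. Cx3cr1, the fractalkine receptor, was at 61.5 and 67.6 CPM at 3 months and at 79.9, 106 and 154 CPM at 6 months (0.81 ± 0.25, adjusted p = 0.147). P2ry12, the purinergic receptor that guides microglial processes to ATP, was at 41.4 and 42.5 CPM and then at 42.4, 54.2 and 71.2 CPM (0.42 ± 0.19, adjusted p = 0.274). The lowest 6-month library of P2ry12 lay within the 3-month pair, whereas every 6-month library of Cx3cr1 lay above its 3-month pair. Siglech, a sialic acid-binding receptor of microglia, was at 16.9 and 17.9 CPM and then at 24.1, 28.5 and 42.0 CPM (0.86 ± 0.23, adjusted p = 0.111).

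Genes shared by myeloid cells at large, with their Fc receptors, had a median of 1.13 over 25 tested, and -0.28 in WT, and of 0.73 without 6-month replicate 3. The groups did not overlap upwards for 20 (17.3% of all genes), and none was called. Csf1r, the receptor on which microglial survival depends, was at 122 and 144 CPM at 3 months and at 154, 200 and 295 CPM at 6 months (0.69 ± 0.23, adjusted p = 0.17). Laptm5, a lysosomal membrane protein of leukocytes, was at 45.8 and 53.7 CPM and then at 79.5, 105 and 182 CPM (1.30 ± 0.30, adjusted p = 0.0902). Both were ordered alike at 6 months, with replicate 1 lowest and replicate 3 highest. Fcer1g, the signalling chain of Fc receptors, had a log2 fold change of 1.27 ± 0.31, and Fcgr2b, the inhibitory Fc receptor, 1.46 ± 0.39, at adjusted p of 0.0953 and 0.114.

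Complement genes encode a cascade that tags synapses and debris for uptake. C4b was the 1 of 18 tested that was called higher (0.107% of all genes). It was at 25.9 and 37.5 CPM at 3 months and at 105, 261 and 279 CPM at 6 months. That is a 6.79-fold increase (2.76 ± 0.45). Its 6-month libraries fell into 1 lower and 2 higher values, all beyond the 3-month pair. C4b has the near-identical copy C4a, whose groups overlapped, and how reads shared by the copies were counted is not given. C1qa, a chain of the initiating complex C1q, was at 40.1 and 54.4 CPM and then at 72.6, 108 and 184 CPM (1.36 ± 0.36, adjusted p = 0.113). C1qb followed it closely, at 42.9 and 56.1 CPM and then at 75.0, 117 and 186 CPM. C3, the central component, was rare at 0.26 and 0.356 CPM and then at 0.571, 2.84 and 2.46 CPM (2.67 ± 0.80, adjusted p = 0.144), and its receptor C3ar1 had a log2 fold change of 1.55 ± 0.33 (adjusted p = 0.0651). The median of the list was 0.81, with 8 members not overlapping upwards (17.3% of all genes). Cfb and C2 did not overlap downwards, a smaller share than the 14.3% of all genes.

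Among 21 chemokine and cytokine genes tested, Ccl3 and Ccl4, which attract leukocytes, were called higher (0.107% of all genes). Ccl3 rose from 1.05 and 1.21 CPM to 4.82, 7.91 and 12.0 CPM, by 7.30-fold (2.87 ± 0.48). Ccl4 rose from 0.344 and 0.351 CPM to 1.78, 2.31 and 3.69 CPM, by 7.45-fold (2.90 ± 0.44). The lowest 6-month library of each exceeded the 3-month pair several times over. Ccl6 was at 5.09 and 4.31 CPM and then at 10.4, 16.1 and 32.8 CPM (adjusted p = 0.0615). The list had a median of 1.14, -0.15 in WT and 0.76 without 6-month replicate 3. For 15 members the groups did not overlap upwards (17.3% of all genes). Ccl7 did not overlap downwards, a smaller share than the 14.3% of all genes.

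Lysosomal genes, which encode the hydrolases and membrane proteins that digest engulfed material, had 32 of 34 members with a positive log2 fold change and a median of 0.66, against 0.02 in WT and 0.43 in 5XFAD without 6-month replicate 3. Ctse was called higher (0.107% of all genes), and for 24 members the groups did not overlap upwards (17.3% of all genes). Ctsd, the main aspartic protease of lysosomes, was at 420 and 459 CPM at 3 months and at 726, 1049 and 1763 CPM at 6 months (1.42 ± 0.29, adjusted p = 0.0615). Ctss, a cysteine protease abundant in microglia, was at 75.6 and 73.6 CPM and then at 131, 202 and 306 CPM (1.51 ± 0.31, adjusted p = 0.0651). Lamp2, a structural membrane protein of lysosomes in all cells, was at 72.0 and 63.3 CPM and then at 89.6, 131 and 111 CPM (0.71 ± 0.13, adjusted p = 0.0537). In Lamp2 the highest 6-month library was replicate 2, unlike in Ctsd and Ctss, where it was replicate 3. The cholesterol exporter of the lysosome, Npc2, had a log2 fold change of 0.84 ± 0.19 (adjusted p = 0.0799).

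Antigen presentation through class I molecules loads peptides, carried into the endoplasmic reticulum by the transporter Tap1, onto a heavy chain such as H2-D1 paired with the light chain B2m. All 3 of these genes were called higher, of 19 tested (0.107% of all genes). B2m was at 98.6 and 99.2 CPM at 3 months and at 150, 216 and 258 CPM at 6 months, a 2.10-fold increase (1.07 ± 0.18). H2-D1 rose from 47.2 and 52.3 CPM to 82.2, 109 and 145 CPM, by 2.25-fold (1.17 ± 0.19), though reads shared with other H2 genes leave its value uncertain. Tap1 rose from 2.90 and 3.45 CPM to 6.16, 7.93 and 8.92 CPM, by 2.42-fold (1.27 ± 0.19). The 3 genes kept the same order of the 6-month libraries, and changed by similar factors. Cd74, the invariant chain of class II molecules, was at 4.08 and 4.55 CPM and then at 9.34, 21.5 and 35.7 CPM (2.36 ± 0.44, adjusted p = 0.0615). Psmb8, a subunit of the immunoproteasome, had a log2 fold change of 1.38 ± 0.30 (adjusted p = 0.0659), and H2-K1 one of 0.93 ± 0.22 (adjusted p = 0.0954). The median of the list was 0.96, with -0.03 in WT. Of the 19, 16 had a positive log2 fold change, against 55.0% of all genes. For 11 the groups did not overlap upwards and for 0 downwards, against 17.3% and 14.3% of all genes.

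Interferon-stimulated genes had a median of 0.62 over 28 tested, and -0.11 in WT. None was called, 27 had a positive log2 fold change and for 15 the groups did not overlap upwards (17.3% of all genes). Eif2ak2, the double-stranded RNA-activated kinase PKR, is induced by interferon but was not in the list. It was called higher, from 5.21 and 4.04 CPM to 7.61, 9.94 and 10.5 CPM (1.02 ± 0.17). Lgals3bp, a secreted galectin-binding protein, was at 23.3 and 30.7 CPM and then at 40.7, 86.7 and 97.1 CPM (1.47 ± 0.29, adjusted p = 0.0615). Stat2, which carries the signal of interferon receptors to the nucleus, had a log2 fold change of 0.38 ± 0.07 (adjusted p = 0.0615). Ifih1, a sensor of viral RNA, had 0.76 ± 0.16 (adjusted p = 0.0651), and Ifi27 1.11 ± 0.22 (adjusted p = 0.0615).

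Because class I and interferon genes share a promoter element that interferon-activated factors bind, promoters were searched for its core, GAAA followed by any 2 bases and GAAA again, on both strands, from 250 bases before to 50 after each gene's start in RefSeq (GRCm38.p6). It was found in 508 of the 13676 tested genes with a promoter in the table (3.71%), in 13 of 22 interferon-stimulated genes and in 2 of 14 antigen presentation genes. Of the 34 called genes, 16 higher and 10 lower ones had a promoter there, and the core was found in B2m and Eif2ak2 among the first and in Ranbp3l among the second. Printed here are B2m and Eif2ak2, the genes called higher that hold it, and as examples of the interferon list Ifih1 and Stat2, in lower case with the core in capitals, or its reverse complement where it lies on the other strand. B2m is given as the 160 bases before its start (chr2:122147527-122147686, plus strand), and the others as 30 bases around the core. These are Eif2ak2 (chr17:78882535-78882564, minus strand), Ifih1 (chr2:62646206-62646235, minus strand) and Stat2 (chr10:128270266-128270295, plus strand), each written 5′ to 3′ along the gene's strand.
B2m: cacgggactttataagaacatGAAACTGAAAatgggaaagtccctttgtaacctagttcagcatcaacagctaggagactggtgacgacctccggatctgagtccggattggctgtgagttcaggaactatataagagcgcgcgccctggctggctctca
Eif2ak2: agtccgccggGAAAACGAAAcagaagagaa
Ifih1: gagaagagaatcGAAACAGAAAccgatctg
Stat2: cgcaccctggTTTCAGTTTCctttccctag
Among these the core began 139 bases before the start of B2m and 222 before that of Stat2, and 18 and 32 bases after it in Eif2ak2 and Ifih1. The core GAGGAAGT of the myeloid factor PU.1 and the E-box core CACGTG were searched in the same way. GAGGAAGT was found in 3.52% of all promoters and in Samsn1 among the called genes, CACGTG in 10.5% of all, in none of the called genes and in 10 of 26 lysosomal genes, Ctsd among them. The lysosomal CLEAR element, a longer motif that contains CACGTG, was found in 0.6% of all and in 0 of the 26. A match describes the letters in this window and is no measure of binding.

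Among astrocyte genes, Gfap was called higher and Gjb6 lower. Gfap was at 148 and 147 CPM at 3 months and at 506, 910 and 1031 CPM at 6 months, a 5.53-fold increase (2.47 ± 0.37). The 3-month pair was almost equal and the 6-month libraries were all more than tripled, while the 5 WT libraries lay between 72.2 and 87.2 CPM. It was the 1 of 25 reactive astrocyte genes that was called higher (0.107% of all genes), and 0 were called lower. The list had a median of 0.27 (0.075 without 3-month replicate 1 and 0.48 without 6-month replicate 1). For 10 members the groups did not overlap upwards (17.3% of all genes). Hspb1 and Nes did not overlap downwards, a smaller share than the 14.3% of all genes. Serpina3n, a secreted protease inhibitor, was at 17.7 and 18.5 CPM and then at 33.3, 50.1 and 79.7 CPM (1.59 ± 0.42, adjusted p = 0.118). Vim, another intermediate filament gene, overlapped between the ages at 31.5 and 39.8 CPM and then at 27.2, 50.4 and 51.1 CPM. The 17 general astrocyte markers had a median of 0.01, and Aqp4, the water channel of their endfeet, had a log2 fold change of 0.40 ± 0.28 (adjusted p = 0.486). Gjb6, the gap junction protein connexin 30, was called lower, at 60.3 and 64.4 CPM at 3 months and at 38.5, 39.0 and 43.7 CPM at 6 months (-0.63 ± 0.11). Its fall thus went against the direction of Gfap in each 6-month library.

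**Figure D2:**
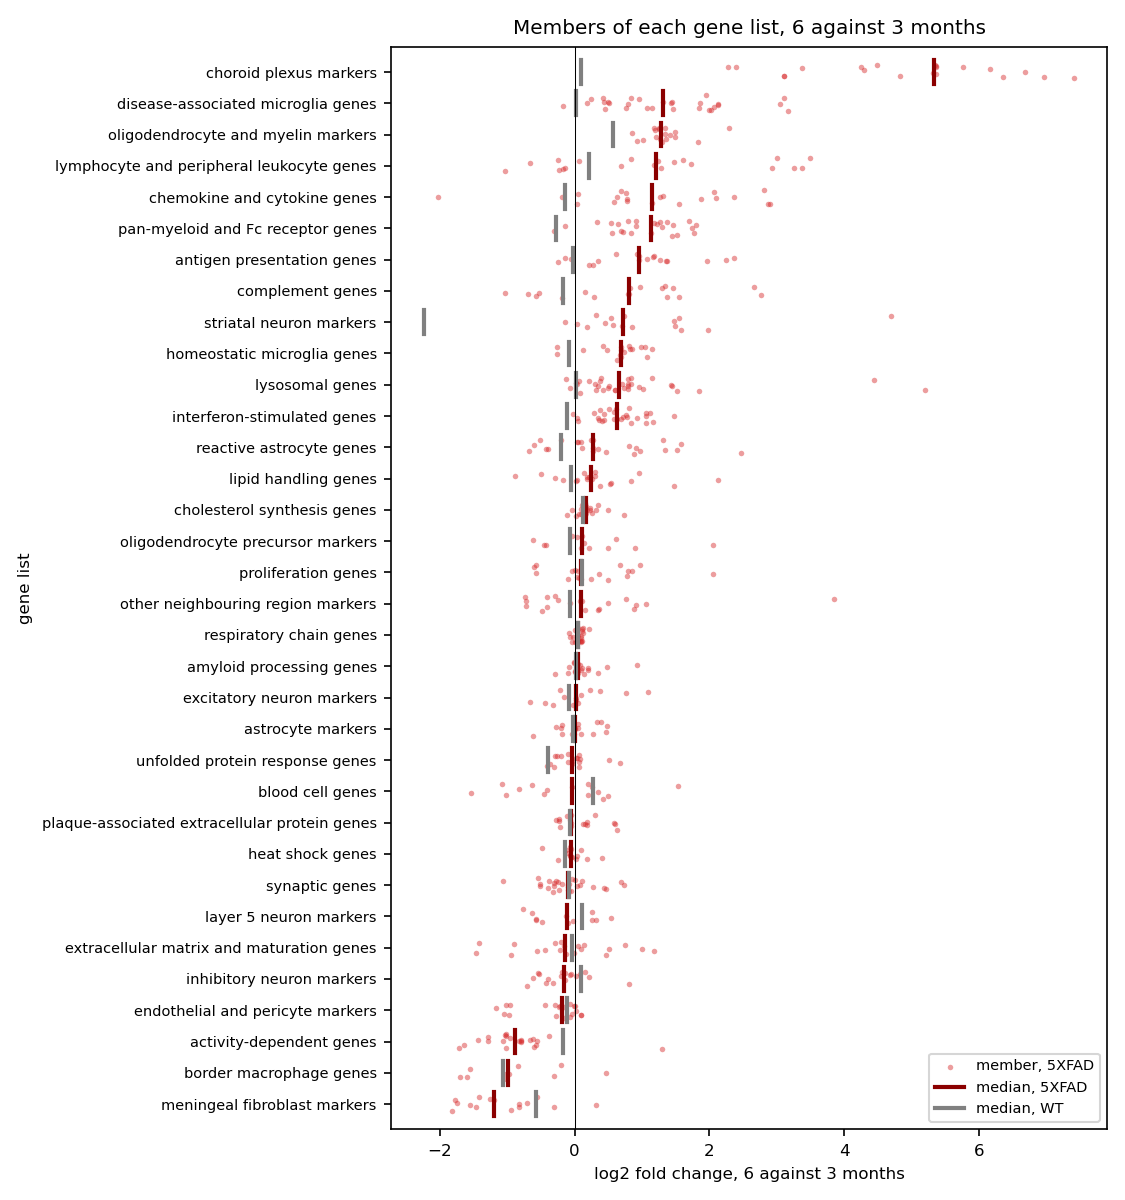
Each row is a gene list and each red point the log2 fold change of one member in 5XFAD, 6 against 3 months, with the median of the list as a dark red bar and its median in WT as a grey bar. Disease-associated microglia genes (median 1.31) and pan-myeloid genes (1.13) lie to the right of 0 in 5XFAD and near or below 0 in WT, while border macrophage genes lie at about -1 in both genotypes.

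The 11 genes called lower included transporters, regulators of actin, a transcription factor and the gap junction gene already described. Slc22a2, an organic cation transporter, fell from 1.16 and 1.89 CPM to 0.0796, 0.265 and 0.307 CPM (-2.79 ± 0.48). Tfap2b, a transcription factor of the AP-2 family, fell from 2.19 and 3.14 CPM to 0.272, 0.759 and 0.661 CPM (-2.23 ± 0.36). Both were rare transcripts, at 129 and 326 counts over the 6-month group, with replicate 1 the lowest library. Ranbp3l, a Ran-binding protein, fell from 6.78 and 7.54 CPM to 2.49, 4.0 and 3.02 CPM (-1.17 ± 0.17). Mfsd2a, the transporter that carries the omega-3 lipid DHA across the endothelium of the blood-brain barrier, fell from 24.7 and 23.6 CPM to 12.8, 11 and 13.7 CPM, a 1.94-fold decrease (-0.95 ± 0.16). It was the 1 gene of 20 endothelial and pericyte markers that was called lower (0.051% of all genes), and 0 were called higher. That list had a median of -0.19, with 10 members not overlapping downwards (14.3% of all genes) and Cldn5, Flt1 and Kdr among those that overlapped.

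The other decreases were of well-expressed genes and under 2-fold. Atp10a, a lipid flippase, fell by 0.79 ± 0.14 on the log2 scale, and Wipf3, a regulator of actin assembly, by 0.77 ± 0.10. Wipf3 was at 203 and 154 CPM at 3 months and at 112, 98.6 and 105 CPM at 6 months, so that the 6-month libraries were closer together than the 3-month ones. Schip1, a cytoskeletal adaptor of axons, fell by 0.65 ± 0.10, the kinase gene Dapk1 by 0.46 ± 0.08, the actin-responsive coactivator Mrtfa by 0.44 ± 0.07 and the phosphatase regulator Phactr3 by 0.44 ± 0.08. All 11 genes called lower also had a negative log2 fold change in WT, from -1.21 ± 0.47 in Slc22a2 and -0.72 ± 0.36 in Tfap2b to -0.16 ± 0.08 in Phactr3. Just beyond the threshold lay Nbl1, a BMP antagonist, at -1.04 ± 0.18 (adjusted p = 0.0504), Ndst3, an enzyme of heparan sulfate, at -0.91 ± 0.16 (0.051), Lama1, a laminin chain, at -1.29 ± 0.24 (0.0537) and Slc30a3, the zinc transporter of synaptic vesicles, at -0.68 ± 0.13 (0.0537), all with groups that did not overlap.

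Markers of the meninges had negative medians in both genotypes, beside these decreases. The 15 meningeal fibroblast markers summed to 870 and 1178 CPM at 3 months and to 237, 901 and 389 CPM at 6 months in 5XFAD, and their median log2 fold change was -1.20, against -0.57 in WT. None was called, and for 9 the groups did not overlap downwards in each genotype (14.3% of all genes in 5XFAD and 10.8% in WT). Col3a1, a fibrillar collagen, was at 5.22 and 4.50 CPM at 3 months and at 1.04, 2.49 and 1.74 CPM at 6 months (-1.47 ± 0.32, adjusted p = 0.0655), and Slc22a6, an organic anion transporter, at 11.5 and 16.8 CPM and then at 1.42, 7.72 and 3.52 CPM. Replicate 1 was the lowest library for the meningeal sum, for Slc22a2 and for Tfap2b alike. The part of meningeal tissue in the decreases was not tested. The 10 genes of macrophages at the brain's borders had a median of -0.99 in 5XFAD and of -1.07 in WT. Of these, 7 did not overlap downwards in 5XFAD (14.3% of all genes) and 8 in WT (10.8%). Lyve1, a hyaluronan receptor, was at 1.53 and 1.31 CPM at 3 months and at 0.265, 0.702 and 0.337 CPM at 6 months (-1.71 ± 0.35, adjusted p = 0.0615). Mrc1, the mannose receptor, was at 4.77 and 5.79 CPM and then at 0.79, 4.53 and 2.74 CPM (-0.97 ± 0.54, adjusted p = 0.371). These values came from the libraries in which Itgax, Clec7a and Ctse were called higher.

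Choroid plexus markers had the highest median of any list, 5.33, which rested on 2 libraries. Ttr was at 24.8 and 1.85 CPM at 3 months and at 581, 3535 and 5.14 CPM at 6 months, so that the third library of the older group lay between the 3-month pair. Slc4a5, a bicarbonate transporter of that epithelium, was at 0.15 and 0.0421 CPM and then at 5.66, 43.5 and 0.13 CPM. Without replicates 1 and 2 of the 6-month group the median of the list was -0.77. None of its 20 members was called, and for 4 the groups did not overlap upwards, a share close to the 17.3% of all genes.

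**Figure D3:**
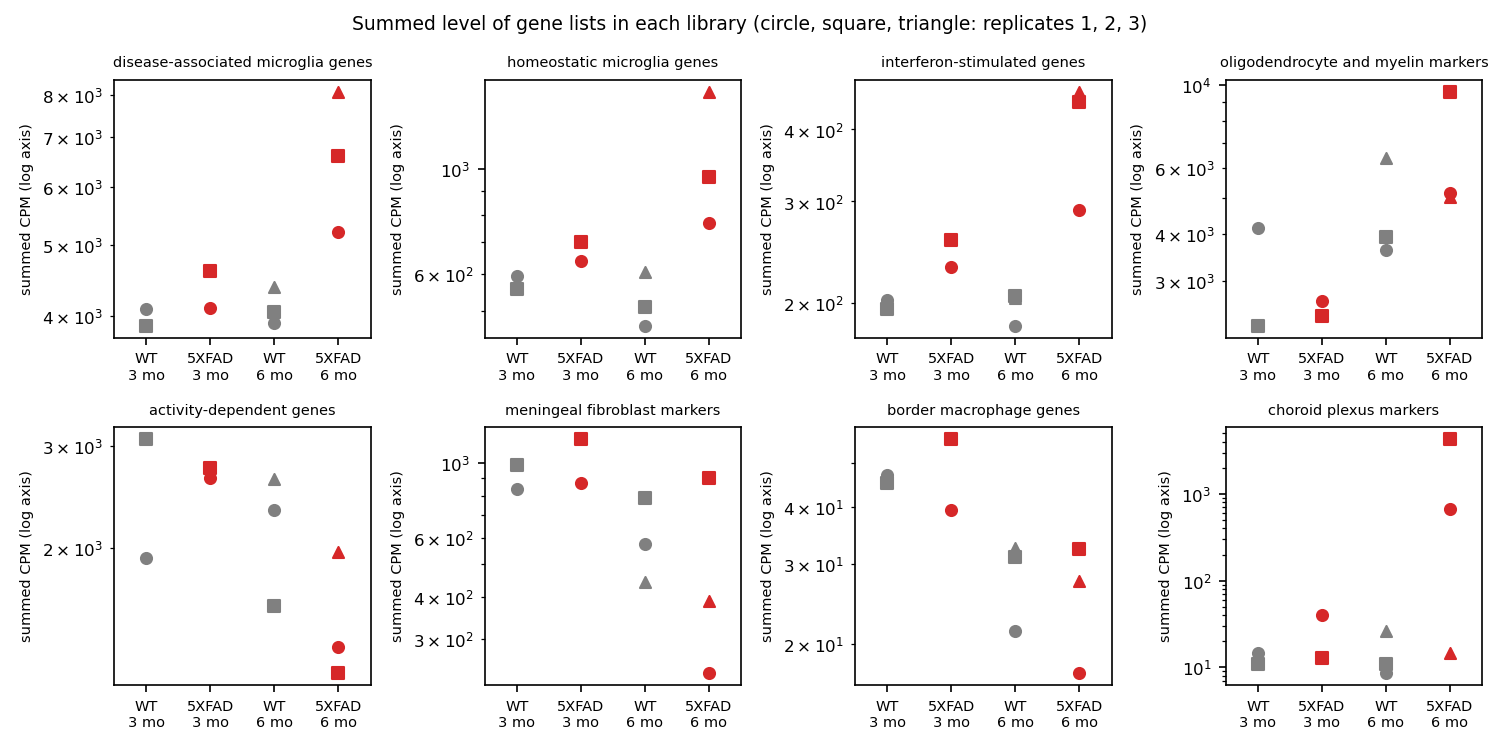
Each panel gives the summed CPM of one gene list on a log axis for every library at 3 and 6 months, with grey symbols for WT, red symbols for 5XFAD and the marker shape for the replicate. The sum of disease-associated microglia genes runs from 5198 to 8074 CPM at 6 months in 5XFAD, above the 3877 to 4610 CPM of the other libraries, while the choroid plexus sum is high in 2 of the 3 libraries at 6 months.

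Markers of neurons had medians near 0. Excitatory neuron markers had a median of 0.02 over 14 tested (-0.08 in WT) and synaptic genes one of -0.09 over 29 (-0.08 in WT). The excitatory sum was 8697 and 8538 CPM at 3 months and 7985, 6283 and 7092 CPM at 6 months. In WT it was 8509 and 8801 CPM and then 7730 to 8036 CPM. At an unadjusted edgeR p under 0.05, 11 synaptic genes lay lower (7.47% of all genes) and 2 higher (10.1%). The smallest p were those of Camk2a (-0.44 ± 0.10, edgeR adjusted p = 0.074) and Shank2 (-0.54 ± 0.12, 0.0702), while Rims1 had 0.44 ± 0.11 (0.0906). Layer 5 markers had -0.12 over 12 and inhibitory neuron markers -0.16 over 18, where WT had 0.10 and 0.09. The medians of their differences of steps were -0.34 and -0.24. The layer 5 sum in WT was 563 CPM in 3-month replicate 1, the library rich in striatal markers, and 679 CPM in replicate 2. At 6 months the WT sums were 665, 636 and 582 CPM. In 5XFAD they were 569 and 584 CPM and then 440, 508 and 534 CPM. No gene of these neuron and synapse lists was called in either direction. The groups did not overlap downwards for 12 synaptic, 5 layer 5 and 4 inhibitory genes (14.3% of all genes) and upwards for 3, 1 and 1 (17.3%). Activity-dependent genes, which neurons switch on within minutes of firing, had a median of -0.89, against -0.17 in WT. Of 22, 17 did not overlap downwards (14.3% of all genes) and none was called. Fosb, a subunit of the transcription factor AP-1, was at 29.1 and 54.8 CPM at 3 months and at 8.83, 10.3 and 21.2 CPM at 6 months (-1.64 ± 0.52, adjusted p = 0.159). Egr4 was at 48.3 and 74.0 CPM and then at 20.6, 20.2 and 34.6 CPM (-1.28 ± 0.38, adjusted p = 0.141), and Nptx2, a secreted organiser of excitatory synapses, at 60.4 and 106 CPM and then at 43.5, 28.4 and 46.9 CPM. Arc, a regulator of synaptic receptors, was at 530 and 519 CPM and then at 224, 166 and 419 CPM (-0.96 ± 0.52, adjusted p = 0.365). Replicate 3 had the highest sum of the list at 6 months, 1965 CPM, against 1352 and 1218 CPM in the others and 2641 and 2748 CPM at 3 months. In WT the sums were spread over 1587 to 3079 CPM at both ages together, and the median in 5XFAD was -0.48 without both libraries rich in Ttr.

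None of the 18 oligodendrocyte and myelin markers was called. All had a positive log2 fold change, 17 did not overlap upwards (17.3% of all genes), and the median was 1.28, against 0.57 in WT. Mbp, myelin basic protein, was at 918 and 941 CPM at 3 months and at 1918, 2859 and 1935 CPM at 6 months (1.27 ± 0.46, adjusted p = 0.199). Its WT libraries were at 1590 and 791 CPM at 3 months and at 1394, 1442 and 2474 CPM at 6 months. The WT ages thus overlapped and reached into the range of the older 5XFAD libraries. The overlap came from 3-month WT replicate 1, the library rich in striatal markers. Summed over the list, WT was at 4153 and 2270 CPM at 3 months and at 3628, 3927 and 6398 CPM at 6 months. In 5XFAD the sums were 2647 and 2415 CPM and then 5130, 9593 and 5036 CPM. Opalin, a membrane protein of myelinating cells, was at 8.42 and 8.91 CPM and then at 21.7, 29.8 and 21.4 CPM (1.49 ± 0.39, adjusted p = 0.114), and Plekhh1 had 1.42 ± 0.35 (adjusted p = 0.101). The precursor cells of the lineage had a median of 0.11 over 13 markers and Pdgfra, their growth factor receptor, at 36.7 and 38.8 CPM and then at 31.2, 46.2 and 46.8 CPM. Trf, the iron carrier transferrin, was at 3.63 and 3.51 CPM at 3 months and at 8.67, 17.6 and 11.6 CPM at 6 months (adjusted p = 0.118).

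Lymphocyte and peripheral leukocyte genes were rare and none of 20 tested was called. Their median was 1.21, against 0.21 in WT, and the groups did not overlap upwards for 9 (17.3% of all genes). They did not overlap downwards for Cd79a, a smaller share than the 14.3% of all genes. Ighm, the heavy chain of immunoglobulin M, was at 33.8 and 17.4 CPM at 3 months and at 67.7, 47.4 and 71.8 CPM at 6 months (1.28 ± 0.33, adjusted p = 0.111), with a log2 fold change of 0.87 ± 0.33 in WT. Pdcd1, the inhibitory receptor PD-1, was at 0.499 and 0.164 CPM and then at 1.23, 2.17 and 4.16 CPM (2.93 ± 0.78, adjusted p = 0.114), and at 0.106 CPM or less in all 5 WT libraries. Cd8b1, a chain of the co-receptor of cytotoxic T cells, had 4 counts over the 3-month group and 68 over the 6-month group, and Nkg7, of cytotoxic granules, had 5 and 73. The T cell genes Cd3e, Cd4, Cd5 and Trac overlapped between the ages.

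Lipid and stress pathways had medians closer to 0. Cholesterol synthesis genes had a median of 0.17 over 19 tested and 0.12 in WT. The groups did not overlap upwards for 10 in 5XFAD (17.3% of all genes) and for 8 in WT (9.84%). Without 6-month replicate 3 the median in 5XFAD was 0.070, below that of WT. Fdps, an enzyme of that pathway, was at 58.1 and 65.2 CPM at 3 months and at 63.9, 65.7 and 75.7 CPM at 6 months (0.15 ± 0.09, adjusted p = 0.416). Lipid handling genes had a median of 0.24 over 20, which ran from 0.13 without 3-month replicate 1 to 0.37 without 3-month replicate 2. Unfolded protein response genes had a median of -0.04 over 18 in 5XFAD and of -0.39 in WT. In WT 13 did not overlap downwards (10.8% of all genes), and in 5XFAD 3, a share close to the 14.3% of all genes. At an unadjusted edgeR p under 0.05, 6 lay lower in 5XFAD (7.47% of all genes) and 0 higher (10.1%). Xbp1 had -0.41 ± 0.09 (edgeR adjusted p = 0.0651) and Hyou1 -0.30 ± 0.07 (0.0964), with -0.42 ± 0.09 and -0.39 ± 0.07 in WT. The list summed to 2009 and 2005 CPM at 3 months in 5XFAD, against 2282 and 2319 CPM in WT. At 6 months it summed to 1745, 2108 and 1847 CPM in 5XFAD and to 1778, 1871 and 1793 CPM in WT. Heat shock, respiratory chain, proliferation, amyloid processing and plaque-associated extracellular protein genes had medians from -0.06 to 0.10. The medians were -0.04 for blood cell genes and 0.09 for markers of other neighbouring regions. They were -0.15 for extracellular matrix and maturation genes and 0.71 for striatal markers, and no member of these lists was called. For 7 of 20 extracellular matrix genes the groups did not overlap downwards (14.3% of all genes) and for 3 upwards (17.3%). Col4a2 had -0.56 ± 0.11 (edgeR adjusted p = 0.0615), and -0.31 ± 0.11 in WT. The striatal median was 0.26 without 6-month replicate 2, and -2.24 in WT, where 1 library at 3 months was rich in these markers.

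Whether the step differed from that in WT was tested as the difference of both steps, which uses the same 5XFAD libraries as the step itself. edgeR called 0 genes (0%), with 1161 at an unadjusted p under 0.05 and a smallest adjusted p of 0.702, while DESeq2 called 56 genes with a more positive and 6 with a more negative step in 5XFAD. The smallest unadjusted p upwards were those of Slc37a2, Tap1, Slc11a1, M1ap and Samsn1, 4 of which were called in 5XFAD. Slc37a2 was at 4.15 and 3.13 CPM at 3 months and at 3.04, 3.34 and 3.41 CPM at 6 months in WT, and its difference of steps was 1.78 ± 0.30 on the log2 scale. For Gfap the difference was 2.41 ± 0.48, for C4b 2.50 ± 0.59, for Tap1 1.41 ± 0.26 and for Ccl4 3.47 ± 0.85, each at an edgeR adjusted p of 0.702. For Clec7a it was 1.32 ± 0.92 (adjusted p = 0.927), on WT values of 0.0289 to 0.336 CPM, and for Cst7 2.08 ± 1.47 (adjusted p = 0.927). Downwards the smallest p were those of Ly6g6e, Ranbp3l, Muc6, Minar2 and Rae1, and Ranbp3l had -1.01 ± 0.25. Without 6-month 5XFAD replicate 1 edgeR called 34 genes higher, and without both libraries rich in Ttr 138 higher and 2 lower.

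**Figure D4:**
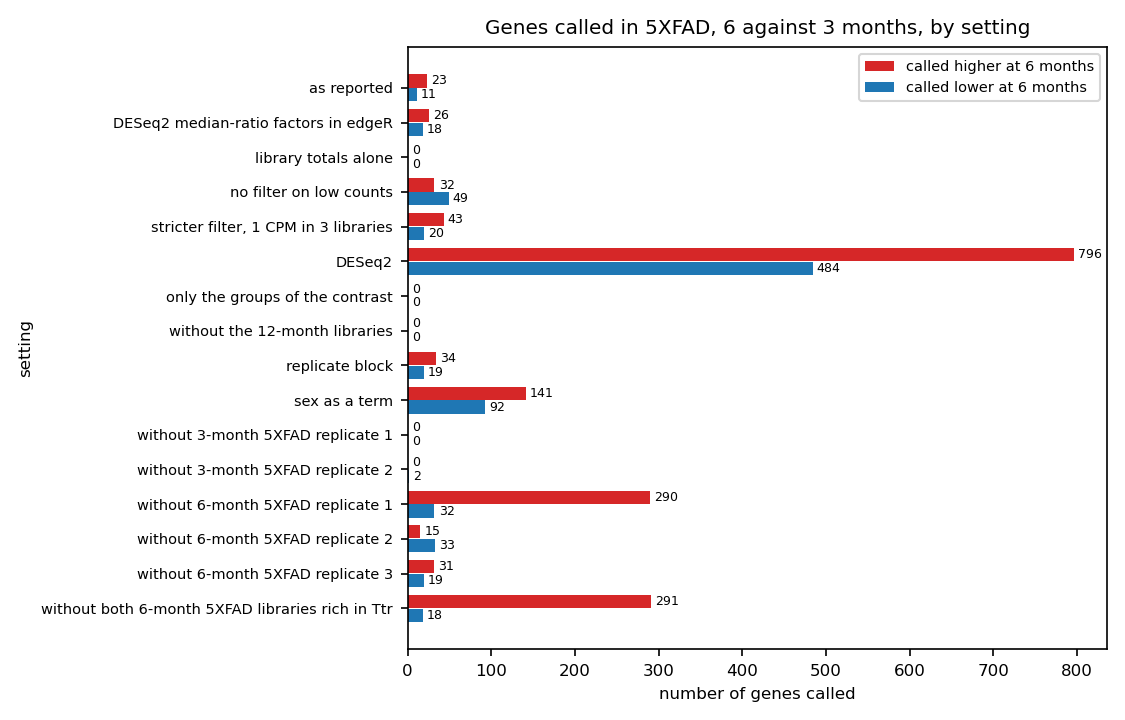
Bars starting at 0 give the number of genes that were called in 5XFAD at 6 against 3 months under each setting, in red for higher and in blue for lower. The counts run from 0 with library totals alone to 796 higher and 484 lower with DESeq2, against 23 and 11 as reported.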

How the data were processed

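Cortex RNA was sequenced in 15 libraries of 6 genotype and age groups. The authors deposited raw whole-number counts for each Ensembl mouse gene, not normalized. Per the submitters' processing notes, the tools include CASAVA, STAR and BWA (no versions named) and the build is mm9; the counting program, annotation, use of strand and treatment of shared reads are not given in the sources used here. Per the labels' protocols the kit took total RNA after ribosomal depletion, while the molecule field reads polyA RNA. Symbols were matched for 32919 of 37991 genes (98.5% of counts).

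Counts were tested with edgeR 4.0.16 (R 4.3.3; robust quasi-likelihood fit, TMM, prior count 0.125), with all 15 libraries and a coefficient per group. filterByExpr (minimum count 10, total 15) left 21555 genes. The SE is the absolute log2 fold change over the root of F, and so approximate. Calls were made at a Benjamini-Hochberg adjusted p under 0.05. The scripts were tested on simulated data. CPM are counts scaled to a TMM-adjusted library. Alternatives included DESeq2 1.42.0, other scalings and filters, a sex term and leaving out each library.

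Members and 35 gene lists were chosen with earlier results of these data known, so lists have counts and medians and no test. Named genes were, by rule, the 15 largest called increases and 10 largest decreases with at least 1 CPM, up to 4 members per list with the smallest p, the 5 smallest p of the difference in each direction, and App, Thy1, Ttr, Drd2, Mbp and Xist. Other called genes and further list members and neighbours of the threshold, such as Apoe, Spp1, P2ry12 and Nbl1, were named after their values were seen. At 149.7 M to 226.7 M counts in 5XFAD, the spread between libraries rather than counting error sets the precision of well-counted genes. Counting error adds to it in rare ones, such as Gm15462 with 8 counts over the 3-month group. The listed genes Lilrb4a, Psmb9, Lhfpl3, Hmgcs1 and Ntn3 were not analysed here.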

Additional observations from a re-analysis of the deposited data

How the results depend on the processing

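With 2 and 3 libraries at the 2 ages, and all 34 calls at 1 adjusted p just under the threshold, counts of calls moved with most settings. All 34 genes kept their direction under every alternative that gave a value, and 0 kept the call under all of them. The number called in 5XFAD, higher and lower, was 26 and 18 with DESeq2's median-ratio factors in edgeR, 32 and 49 with no filter on low counts, 43 and 20 with a filter at 1 CPM in 3 libraries, 796 and 484 with DESeq2 and 141 and 92 with sex as a term. It was 0 and 0 with library totals alone, with only the groups of the contrast and without the 12-month libraries. Leaving out each 5XFAD library in turn gave 0 to 290 higher and 0 to 33 lower. In an alternative chosen after seeing the data, without both libraries rich in Ttr, it was 291 and 18.

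Equal replicate numbers join libraries of different ages, which the labels do not pair, and only 2 numbers are shared. The correlation of deviations was 0.649 and 0.282 for equal numbers, and 0.534 between 3-month replicate 2 and 6-month replicate 3. Deviations were taken from the group mean, so the 2 replicates at 3 months mirror each other and these values are not independent. Replicate 1 is also the male library at both ages. With the replicate block 34 genes were called higher and 19 lower, and 26 of the 34 genes reported stayed called while 8 did not.

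In WT, DESeq2 called 14 and 20 genes, and the other alternatives called 0. For the difference of steps, DESeq2 called 56 and 6, edgeR 34 higher without 6-month 5XFAD replicate 1 (0 to 34 when each library was left out, and 0 lower), and 138 and 2 without both libraries rich in Ttr; the other alternatives called 0. The cause of these shifts was not tested. Directions turned for Thy1, at -0.091 without 3-month replicate 1 and -0.061 without 6-month replicate 3. Thy1 had 0.16 without 3-month replicate 2 and at most 0.23 over all alternatives. Apoe turned as well, at -0.051 without 3-month replicate 1. It had 0.40 without 3-month replicate 2 and at most 0.43 over all alternatives. Ttr (-1.36) and Cldn2 (-0.97) turned without both libraries rich in Ttr. List medians that changed sign were those of astrocyte markers (-0.15 to 0.12), excitatory neuron markers (-0.21 to 0.20), blood cell genes (-0.47 to 0.24), markers of other neighbouring regions (-0.30 to 0.34), plaque-associated extracellular protein genes (-0.19 to 0.16), choroid plexus markers (-0.77 to 5.99), respiratory chain genes (-0.023 to 0.097), proliferation genes (-4e-04 to 0.36) and unfolded protein response genes (-0.17 to 0.0081), beside the genes related to the transgenes. Leaving out single libraries took the median of layer 5 markers from -0.29 to -0.011, of inhibitory neuron markers from -0.27 to -0.12, of extracellular matrix genes from -0.36 to -0.038 and of oligodendrocyte precursor markers from 9e-04 to 0.22.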
